A study of Danio rerio with 6 samples.

Results

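The regions described here were open in non-endothelial nuclei of zebrafish embryos, were not among the stronger peaks of endothelial nuclei, and lay close to another region of the same kind. Open chromatin had been mapped by ATAC-seq, in which a transposase inserts sequencing adapters where DNA is accessible. Each of the 6 deposited peak lists was cut to the length of the shortest one, keeping the peaks with the highest −log10 p. Merging all peaks of the cut lists that shared 1 bp or more gave 63950 regions, of which 61837 lay on the 25 numbered chromosomes. A region was GFPminus-only when it held a peak of all 3 GFPminus lists and of none of the 3 GFPplus lists (2139 regions, 3.46% of the 61837). It was clustered when its midpoint lay 1 to 10 kb from the midpoint of another GFPminus-only region. This left 258 clustered regions, which are 12.1% of the GFPminus-only regions. The other 1881 are called unclustered. The peak calls themselves chose these regions, so their presence in GFPminus lists and their absence from the cut GFPplus lists are descriptions and were not tested.

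All embryos were of the line Tg(fli1a:egfp) and 24 hours post fertilization. The transgene expresses GFP under the control of fli1a, which encodes an ETS family transcription factor of endothelial cells. Nuclei were taken from deyolked embryos and separated by their fluorescence. The labels call GFPplus nuclei endothelial and GFPminus nuclei non-endothelial, and each fraction had 3 libraries, which are biological replicates from separate occasions per the design text. The lists carry no gene names, so the labelled cell types could not be set against marker genes. In zebrafish embryos fli1a is also active in neural crest cells of the pharyngeal arches, so the GFPplus fraction of this transgene need not be endothelial alone.

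Enhancers are stretches of DNA that bind transcription factors and raise the transcription of a gene at a distance. Genes that control development often have several enhancers spread over their neighbourhood, and enhancers of one gene that act in the same tissue can be open together. A GFPminus fraction holds the nuclei of all other tissues of the embryo, such as muscle, nervous system and epidermis. A site that is open in a small tissue is therefore diluted by the other nuclei of that fraction, and a weak peak may stand for few open nuclei or for low openness in many. These possibilities cannot be told apart in bulk libraries.

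The lists differed in length and in the strength at which they end. GFPminus libraries 1 and 2 had 113476 and 110663 deposited peaks, GFPplus libraries 1, 2 and 3 had 72695, 73716 and 50396, and GFPminus library 3 had the fewest. After the cut, the last peak of each list had a −log10 p of 9.97, 9.65 and 3.31 in GFPminus libraries 1 to 3, and of 9.06, 8.03 and 6.57 in GFPplus libraries 1 to 3. GFPminus library 3 thus kept its whole list, while GFPminus libraries 1 and 2 kept 29.5% and 30.2% of their peaks and GFPplus libraries 1 to 3 kept 46.0%, 45.4% and 66.3%. Deposited peaks beyond the cut of the GFPplus lists are given separately.

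The number of clustered regions depended on single libraries. Leaving a library out asks for 1 list fewer to hold or to lack a peak, which by itself lets more regions qualify. The regions were then chosen anew, so every value given below without a library is over a changed set of regions. The number of clustered regions was 651 without GFPminus library 3 and 512 without GFPplus library 2, and between 317 and 364 without any 1 of the other 4. The limits of the rule were sharp for a few regions. The widest accepted distance was 9968 bp, between regions on chromosome 6 at 2102175 to 2102581 and at 2112105 to 2112587. The nearest rejected region, on chromosome 11 at 43132739 to 43133016, lay 10056.5 bp from its neighbour. A further 18 GFPminus-only regions had another one less than 1 kb away and none at 1 to 10 kb. The last rank of any clustered region was 33426, in GFPminus library 3. Among clustered regions, the deposited GFPplus peak closest to being counted ranked 33498 in GFPplus library 2, on chromosome 2 at 47586978 to 47587695. A region on chromosome 7 at 52502993 to 52503461 was not GFPminus-only because its peak ranked 33139 in GFPplus library 1.

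The 258 regions formed 121 clusters, counted as runs of clustered regions whose consecutive midpoints were at most 10 kb apart. Most clusters were pairs. There were 106 pairs, 14 clusters of 3 regions and 1 cluster of 4. From the first to the last midpoint a cluster spanned a median of 6567.5 bp, with a range from 1000.5 to 16990.5 bp. The 137 distances between consecutive regions had a median of 5802.5 bp and quartiles of 3175.5 and 7731.5 bp. They were spread over the allowed range, with 14 at 1 to 2 kb, 29 at 2 to 4 kb, 31 at 4 to 6 kb, 34 at 6 to 8 kb and 28 at 8 to 10 kb, and 1 below 1 kb inside a cluster of 3. The mirror set of GFPplus-only regions (a peak in 3 of 3 GFPplus and 0 of 3 GFPminus cut lists) held 2230 regions, 3.61% of those on numbered chromosomes. Of these, 266 (11.9%) were clustered by the same distance, in 109 pairs, 12 clusters of 3 and 3 of 4. Their consecutive distances had a median of 5732.75 bp, so at this list length clustering in share, size and spacing was near that of the GFPminus-only regions. The shares differed at other lengths. With 20000 peaks 15.1% of GFPminus-only and 9.24% of GFPplus-only regions were clustered. In the lists as deposited, whose lengths are unequal, these shares were 5.05% and 10.5%. With peaks ranked by fold, at the main list length, they were near each other at 8.87% and 8.74%. No test of these differences was run, because regions of one set of libraries are not replicates.

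**Figure D1:**
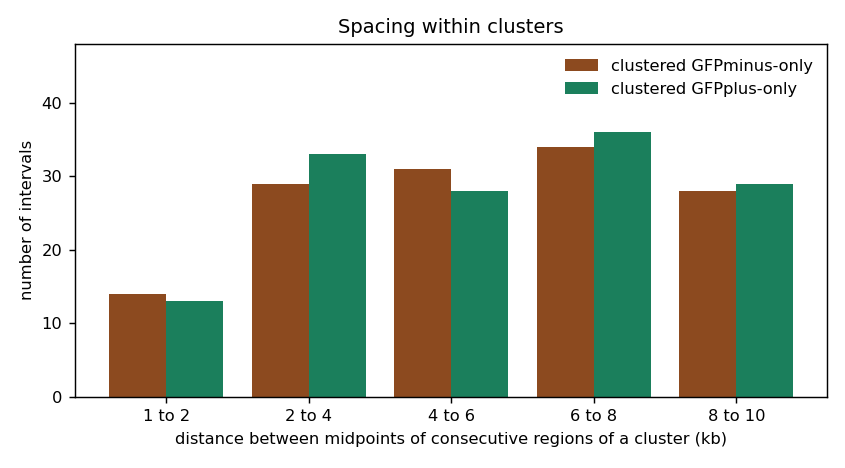
Number of intervals (vertical axis) between consecutive regions of a cluster, by the distance between their midpoints in kb (horizontal axis), for clustered GFPminus-only regions (brown) and clustered GFPplus-only regions (green). Both kinds filled the range up to 10 kb, with 34 and 36 intervals at 6 to 8 kb, and 1 GFPminus-only and 3 GFPplus-only intervals below 1 kb are not drawn.

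The densest group lay on chromosome 11 (Zv9). The 100 kb from 43100001 to 43200000 held 8 GFPminus-only regions among 19 merged regions, of which 6 were clustered, and no region called in all 6 lists or GFPplus-only. In these 100 kb the cut lists had 15, 13 and 12 peaks in GFPminus libraries 1 to 3, against 1, 2 and 1 in GFPplus libraries 1 to 3. Every GFPminus list had more peaks there than any GFPplus list, as the choice of the window for its GFPminus-only regions makes likely. In the deposited lists, which differ in length, the numbers were 26, 26 and 12 in GFPminus and 11, 16 and 2 in GFPplus libraries. The groups then overlapped through GFPminus library 3, whose deposited list holds no peaks beyond the cut.

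The 6 clustered regions of this window formed 2 clusters of 3. The first began with a region at 43111205 to 43111985, with a fold enrichment of 21.16, 19.07 and 4.43 in GFPminus libraries 1, 2 and 3. This is the fold over the peak caller's background at the peak's summit, as the authors' lists give it. It ranked 869 and 1847 in the first 2 lists but 26728 in the third, where the summit lay 399 bp from that of GFPminus library 1. The peak of GFPminus library 3 was 176 bp wide against 781 bp in GFPminus library 1, so GFPminus library 3 shared the region but not the summit of the other libraries. Its neighbour at 43118977 to 43119341 had folds of 17.39, 14.83 and 10.53, with the 3 summits within 19 bp. The third region, at 43121223 to 43121625, had folds of 9.39, 7.36 and 4.71. In all 3 regions GFPminus library 1 had the highest and GFPminus library 3 the lowest fold.

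The second cluster lay 31.3 to 40.4 kb beyond the midpoint of the first region. At 43142828 to 43143040 the folds were 8.55, 6.79 and 5.47, at 43145990 to 43146307 they were 7.49, 6.71 and 4.17, and at 43151798 to 43152104 they were 13.05, 9.55 and 7.37. The summits of the 3 libraries lay within 25, 41 and 14 bp of each other, so each of these 3 regions marked one place. All 3 remained clustered with lists of 25000 and of 20000 peaks, 2 did when peaks were ranked by fold, and 0 did in the lists as deposited. The first cluster was not followed through changed settings. A pair of unclustered GFPminus-only regions in the same window, at 43132739 to 43133016 and at 43175161 to 43175665, missed the distance limit. The first of them lay between the clusters, and its 10056.5 bp to the second cluster kept it out. Towards lower coordinates, 3 regions called in all 6 lists lay between 43077142 and 43094337, and the next such region beyond the window began at 43206617.

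GFPplus nuclei were not without signal in this window. The first region overlapped a deposited peak of GFPplus library 1 with a fold of 5.39 at rank 34600, not far beyond the cut. The region at 43118977 overlapped deposited peaks of GFPplus library 1 (fold 3.08, rank 71953) and GFPplus library 2 (fold 4.25, rank 50464). All 6 clustered regions of the window had a deposited peak in 1 or 2 GFPplus lists.

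**Figure D2:**
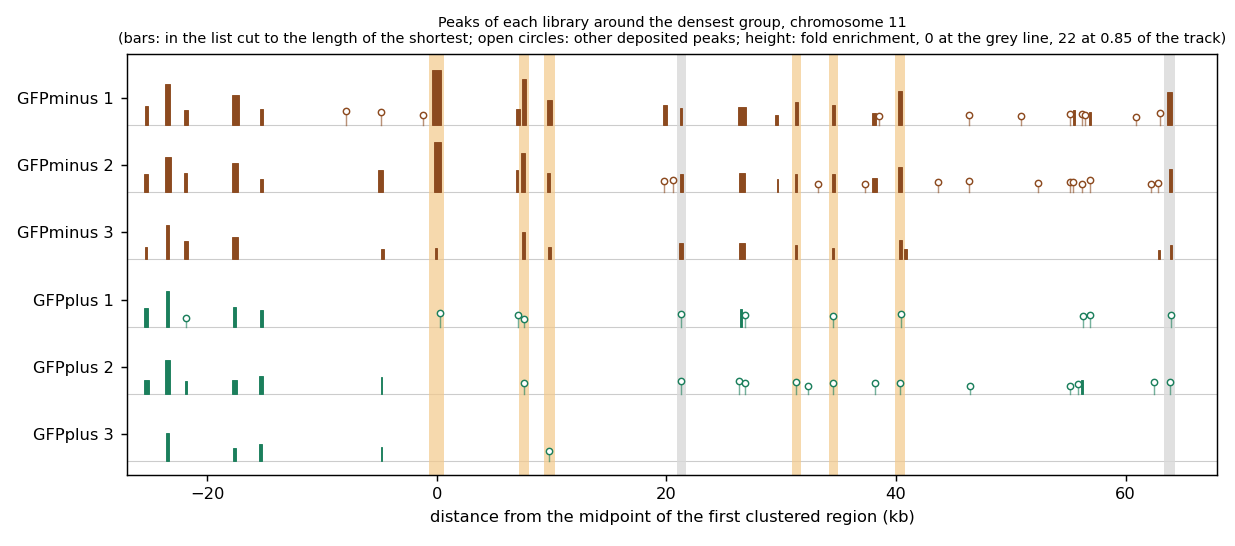
Peaks of the 6 libraries (1 track each) by distance in kb from the midpoint of the first clustered region on chromosome 11, with bars for the peaks of the cut lists, open circles for other deposited peaks, and height for the fold enrichment. Orange bands mark the 6 clustered regions and grey bands the 2 unclustered GFPminus-only regions; GFPplus tracks carry open circles but no bars within the bands.

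The cluster with most regions lay on chromosome 18 from 5156626 to 5165621 and held 4. Its regions were of moderate strength. The folds in GFPminus libraries 1, 2 and 3 were 5.98, 5.22 and 4.63 in the region at 5156626 to 5156944, and 5.29, 4.67 and 5.64 in the region at 5157591 to 5158161. They were 7.52, 8.02 and 5.22 at 5162514 to 5162787, and 5.41, 4.52 and 5.56 at 5165314 to 5165621. No library was highest or lowest in all 4 regions. The last of them ranked 33152 in GFPminus library 2, the rank closest to the limit that any clustered region had in that list. Each of the 4 regions overlapped 1 deposited GFPplus peak, in GFPplus library 1, 3, 1 and 2 from the first to the last region. With shorter lists of 25000 peaks, none of the 4 was a clustered region any more.

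The other clusters named by their number of regions had 3 each. On chromosome 8 from 53124431 to 53132978 the mean fold was higher towards the higher coordinates, at 6.60 ± 1.14, 9.28 ± 2.31 and 11.5 ± 1.46 (SD, n = 3). The region at 53132458 to 53132978 had folds of 12.14, 12.62 and 9.88 in GFPminus libraries 1 to 3, and its summits lay within 29 bp. All 3 regions remained clustered with lists of 25000 and of 20000 peaks, 2 did when peaks were ranked by fold, and none did in the lists as deposited. On chromosome 16 from 12637741 to 12655400 the regions were spread over 16990.5 bp, the widest span of any cluster, with mean folds of 5.40 ± 0.44, 9.02 ± 1.23 and 8.22 ± 0.82 (SD, n = 3). On chromosome 15 from 27099822 to 27105718 the mean folds were 5.41 ± 0.98, 6.43 ± 0.38 and 7.86 ± 0.38 (SD, n = 3). The weakest of these, at 27099822 to 27100156, had a deposited peak in all 3 GFPplus lists, with folds of 5.02, 4.87 and 4.75 at ranks 36691, 34067 and 35090. Its folds in GFPminus libraries 1 to 3 were 5.81, 6.13 and 4.30, at ranks 22348, 19559 and 26163. Its absence from the cut GFPplus lists rested on ranks just past the limit. On chromosome 9 from 26843977 to 26853186 the mean folds were 4.39 ± 0.42, 5.47 ± 0.55 and 5.07 ± 0.34 (SD, n = 3). Its first region, at 26843977 to 26844441, had no deposited peak in any GFPplus list.

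Clustered regions were also ranked by the lowest −log10 p among the 3 GFPminus libraries, and the first 5 are given here. The cut lists end at unlike −log10 p. In all but the first of these 5 the lowest value was that of GFPminus library 3, so this order leans on that library. The first lay on chromosome 7 at 51236118 to 51236840, with folds of 11.76, 9.37 and 13.38 and ranks of 1821, 4716 and 569 in GFPminus libraries 1 to 3. GFPminus library 3 held the highest fold and the best rank here, unlike in the chromosome 11 clusters. Its deposited GFPplus peaks had folds of 5.39 and 3.55 in libraries 1 and 2, and GFPplus library 3 had none. The second, on chromosome 7 as well, at 57187263 to 57187706, had folds of 10.16, 9.30 and 10.75. The region on chromosome 8 at 53132458 came next, followed by chromosome 10 at 10284898 to 10285503, with folds of 5.89, 6.66 and 6.83. The fifth, on chromosome 20 at 39984878 to 39985669, had folds of 9.38, 8.18 and 8.90 and was the only one of the 5 with no deposited GFPplus peak. Its partner 6138 bp away, at 39991212 to 39991611, had a lower mean fold of 7.37 ± 1.55 (SD, n = 3). Ranks within each list would give another order. The chromosome 11 region at 43118977 to 43119341 ranked 1906, 4085 and 4415 in GFPminus libraries 1 to 3. Its worst rank was better than that of any of the 5.

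The shortest distance between consecutive clustered regions, 927 bp, lay inside a cluster of 3 on chromosome 7, between the regions at 29248473 to 29249119 and at 29249540 to 29249906. Of the distances of at least 1 kb, which the rule counts, the shortest were little more than that. On chromosome 2 the regions at 21895554 to 21895953 and at 21896473 to 21897035 had midpoints 1000.5 bp apart and mean folds of 5.33 ± 0.98 and 6.13 ± 0.72 (SD, n = 3). On chromosome 5 the regions at 38213206 to 38214051 and at 38214165 to 38215193 were separated by only 113 bp of sequence without a peak. They were broad, 846 and 1029 bp, and the first had the lowest mean fold of all 258 regions, 3.56 ± 0.04 (SD, n = 3), with summits up to 642 bp apart between libraries. Whether they form 1 broad open stretch was not tested. The next in distance were 2 regions of the chromosome 18 cluster (1091 bp), a pair on chromosome 1 at 8358799 to 8360473 (1162 bp) and a pair on chromosome 17 at 32548758 to 32550376 (1192.5 bp).

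Over all 258 regions the peaks were of middle strength. Their median fold was 6.83, 6.69 and 5.19 in GFPminus libraries 1, 2 and 3, at median percentiles of 56.3, 55.1 and 50.9 of −log10 p in the cut list of the same library. Regions called in all 6 lists stood at 74.8, 75.1 and 76.0 in these lists. Of the 258, 9, 5 and 1 were in the best 10% of the list of GFPminus libraries 1, 2 and 3. Folds of the same region ran together between GFPminus libraries 1 and 2 (Pearson's r = 0.80 over the 258 regions), and less so between library 3 and libraries 1 and 2 (r = 0.52 and 0.50). These correlations are across regions that were chosen for a peak in all 3 libraries, and regions are not replicates. In the 106 pairs the stronger region had a median of 1.24 times, and at most 1.97 times, the mean fold of the weaker one. Mean folds within a pair ran together only weakly (Pearson's r = 0.20, Spearman's rho = 0.23). Ratios between regions of different clusters were not set beside these.

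Unclustered GFPminus-only regions were set beside the clustered ones in fold, width and summit position. Their median fold was 6.99, 6.71 and 5.19 in GFPminus libraries 1 to 3, and clustered minus unclustered was −0.06 ± 0.09 (SD, n = 3 libraries, exact two-sided sign-flip permutation p = 0.25, the smallest that 3 libraries allow). With regions chosen anew in each setting, the difference turned to 0.17 without GFPminus library 1, and was −0.53 when neighbours had to lie at 1 to 5 kb. Median peak widths were 407, 395.5 and 262.5 bp in clustered and 406, 385 and 267 bp in unclustered regions, a difference of 2.33 ± 7.59 bp (SD, n = 3 libraries, exact sign-flip permutation p = 0.75) that turned to −0.67 bp without GFPplus library 1. Both mean differences were smaller than their SD between libraries. The summits of the 3 libraries lay within a median of 85.5 bp in clustered and 84 bp in unclustered regions. In −log10 p the clustered regions stood higher in their lists by 5.37, 7.43 and 5.65 points of percentile in GFPminus libraries 1 to 3. This last comparison was chosen after the values had been seen and was not tested.

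**Figure D3:**
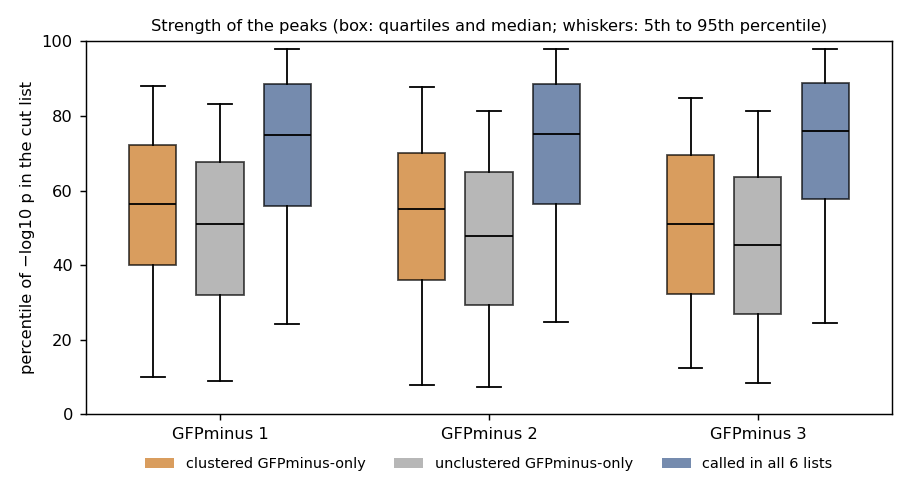
Percentile of −log10 p within the cut list (vertical axis, 100 is the strongest peak) in each GFPminus library for clustered GFPminus-only regions (orange, 258), unclustered ones (grey, 1881) and regions called in all 6 lists (blue, 13637). Boxes give quartiles and median, and whiskers the 5th to 95th percentile; clustered regions had medians of 50.9 to 56.3, and regions called in all 6 lists 74.8 to 76.0.

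Most clustered regions held a peak beyond the cut in at least 1 deposited GFPplus list. Such a peak was found in 129 (50%), 134 (51.9%) and 44 (17.1%) of the 258 regions in GFPplus libraries 1, 2 and 3. The third share is bounded by its list, which ends at 50396 peaks. Up to that rank the numbers were 66 (25.6%), 68 (26.4%) and 44 (17.1%), so the libraries lay closer at 1 list length. The peaks beyond the cut had median folds of 4.18, 3.99 and 3.82 in the 3 GFPplus libraries. They ranked low within their own lists, but were not always weaker than the GFPminus peaks of the same region. On chromosome 1 at 6744111 to 6744603 the folds were 3.93 and 4.24 in GFPplus libraries 1 and 2. They were 6.01, 5.47 and 2.92 there in GFPminus libraries 1 to 3. In all, 74 regions (28.7%) had no deposited GFPplus peak, 88 (34.1%) had one in 1 list, 69 (26.7%) in 2 lists and 27 (10.5%) in all 3. The same shares of unclustered GFPminus-only regions were 24.7%, 33.0%, 31.6% and 10.7%. Among unclustered GFPminus-only regions 51.5%, 59.3% and 17.7% held a deposited peak of GFPplus libraries 1 to 3. The clustered share was lower in each library, by 1.46, 7.39 and 0.60 percentage points. Up to rank 50396 it was lower by 0.68, 6.07 and 0.60 points, mostly in GFPplus library 2. In the mirror set, clustered GFPplus-only regions also held fewer deposited peaks than unclustered ones up to that rank. The shares were lower by 4.02 and 4.86 points in GFPminus libraries 1 and 2. Over the whole GFPplus lists, the mean difference was −3.15 ± 3.70 points (SD, n = 3 libraries, exact sign-flip permutation p = 0.25, the smallest possible). It was smaller than the spread between libraries. With regions chosen anew, the mean difference was −2.21 without GFPplus library 2, −6.09 without GFPplus library 1 and −6.34 without GFPplus library 3.

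Clusters without any deposited GFPplus peak numbered 9 of 121 (7.44%), all pairs, while in 57 clusters every region had such a peak and 55 were mixed. Every region of a cluster had to lack a peak to be counted, and of single clustered regions 28.7% lacked one. The number that this share alone would give was not worked out. On chromosome 13 the regions at 10166655 to 10167083 and at 10175930 to 10176540 had folds of 9.17, 7.43 and 7.31 and of 7.27, 10.11 and 5.41 in GFPminus libraries 1 to 3. On chromosome 24 there were such pairs at 14208773 to 14215159, with mean folds of 8.29 ± 2.65 and 5.71 ± 0.38, and at 20273891 to 20279865, with 5.91 ± 0.36 and 5.20 ± 0.45 (SD, n = 3). Chromosome 4 held a pair at 5607585 to 5613080, with mean folds of 7.91 ± 2.53 and 6.16 ± 0.57, and another at 27300135 to 27309363, with 6.12 ± 1.20 and 5.70 ± 0.74 (SD, n = 3). The remaining ones lay on chromosome 1 at 30759954 to 30763164, chromosome 5 at 38213206 to 38215193 (the pair separated by 113 bp), chromosome 9 at 16089949 to 16097877 and chromosome 14 at 33546746 to 33553326. These pairs were picked out after their values had been seen.

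**Figure D4:**
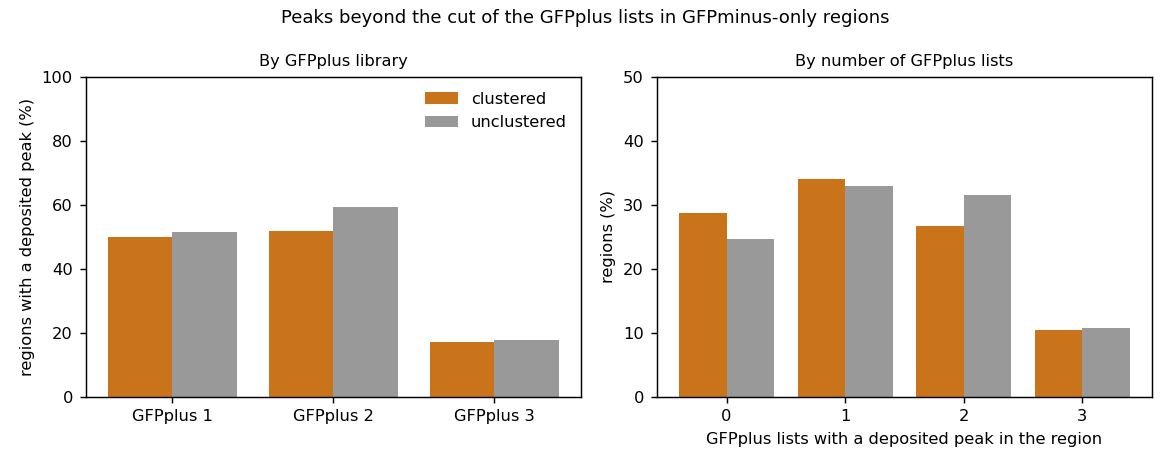
Percent of clustered (orange) and unclustered (grey) GFPminus-only regions that overlap a deposited peak of a GFPplus library beyond its cut, by library (left) and by the number of GFPplus lists with such a peak (right). Shares in clustered regions were 50%, 51.9% and 17.1% in GFPplus libraries 1 to 3, and 28.7% of the regions had no such peak.

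The surroundings of the clusters were not themselves used to choose them. An exception is that no further GFPminus-only region can lie 1 to 10 kb from a member without being one. No least distance was set, so peaks right beside a chosen region counted as surroundings. On chromosome 11 a region at 43118479 to 43118863 was called in 2 GFPminus and 0 GFPplus lists. It lay just before the clustered region at 43118977 to 43119341. Whether such peaks are part of the chosen sites was not tested, so the counts below cannot be taken as independent of the choice. Within 10 kb of a clustered region, and outside these regions, the cut lists had 160, 159 and 117 other peaks in GFPminus libraries 1 to 3 and 112, 119 and 105 in GFPplus libraries 1 to 3. The means were 145 ± 24.5 and 112 ± 7 (SD, n = 3). GFPminus libraries 1 and 2 lay above all GFPplus libraries, and GFPminus library 3 lay within the GFPplus range. The difference of 33.3 peaks had an exact two-sided permutation p = 0.2, where 3 libraries against 3 cannot go below 0.1. Without GFPminus library 3 it was 53.2, but over 651 regions chosen anew in place of 258. Both values are totals over the regions of a set, so their sizes are not comparable. Around unclustered GFPminus-only regions there were 1436 ± 134 against 1241 ± 76.2 peaks (SD, n = 3, exact permutation p = 0.2), a GFPminus to GFPplus ratio of 1.16 in place of 1.3. Around clustered GFPplus-only regions the order was the opposite, with 108 ± 5 GFPminus against 133 ± 16.0 GFPplus peaks (SD, n = 3, exact permutation p = 0.1). Around unclustered GFPplus-only regions there were 1258 ± 28.6 against 1450 ± 132 peaks (SD, n = 3, exact permutation p = 0.1).

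There were 252 other merged regions within 10 kb of a clustered region, and part of them leaned the same way. They include regions right beside a clustered one, so the shares below cannot be taken as independent of the choice either. Regions called in 2 of 3 GFPminus and 0 of 3 GFPplus lists made up 32 of the 252 (12.7%), against 4.88% of all regions that were not GFPminus-only. Regions called in all 3 GFPminus lists and in 1 or 2 GFPplus lists made up 38 (15.1%), against 7.09%. The mirror classes were less frequent than in that background, with 11 regions (4.37%) called in 2 of 3 GFPplus and 0 of 3 GFPminus lists, against 5.86%, and 9 (3.57%) called in all 3 GFPplus and in 1 or 2 GFPminus lists, against 6.04%. GFPplus-only regions made up 6 of the 252 (2.38%, against 3.74%), and regions called in all 6 lists 48 (19.0%, against 22.8%). Most clusters had another merged region within 10 kb, and 20 of 121 (16.5%) had none. Between their first and last region 88 clusters had no other region, and 36 (29.8%) had a region called in all 6 lists within 10 kb. These counts were not made for unclustered regions.

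The 48 nearby regions called in all 6 lists had higher median percentiles in each GFPminus list than in any GFPplus list. Their median percentile was 83.5, 86.2 and 81.8 in GFPminus libraries 1 to 3 and 70.4, 77.7 and 73.3 in GFPplus libraries 1 to 3, so the groups did not overlap. Relative to the median of all 13637 such regions in the same list, they stood at 8.53 ± 2.66 points in GFPminus and at −1.48 ± 2.88 points in GFPplus libraries (SD, n = 3). The difference of 10 points gave the smallest p the design allows (exact two-sided permutation p = 0.1), and was 15.9 without GFPplus library 2 and 9.66 (exact permutation p = 0.2) without GFPplus library 1. Of these 48 regions, 20 (41.7%) ranked higher in every GFPminus than in every GFPplus list, against 12% of all regions called in all 6 lists. In the other direction 2 (4.17%) did, against 11.7%. Near unclustered GFPminus-only regions, 555 regions called in all 6 lists showed a similar difference of 8.42 points (exact permutation p = 0.1). The differences near clustered and near unclustered regions were not tested against each other. Near clustered GFPplus-only regions the difference was −3.03 points over 42 regions (exact permutation p = 0.4), and near unclustered GFPplus-only regions it was −2.83 points over 572 regions (exact permutation p = 0.2). Over the 11 tests of the main setting, without those of changed settings, the lowest Benjamini-Hochberg adjusted p was 0.275 (exact permutation). The design allows no p below 0.1 for 3 libraries against 3, or below 0.25 for 3 signs. These tests therefore cannot show that a difference is absent, and a p at these limits does not show that one is present.

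**Figure D5:**
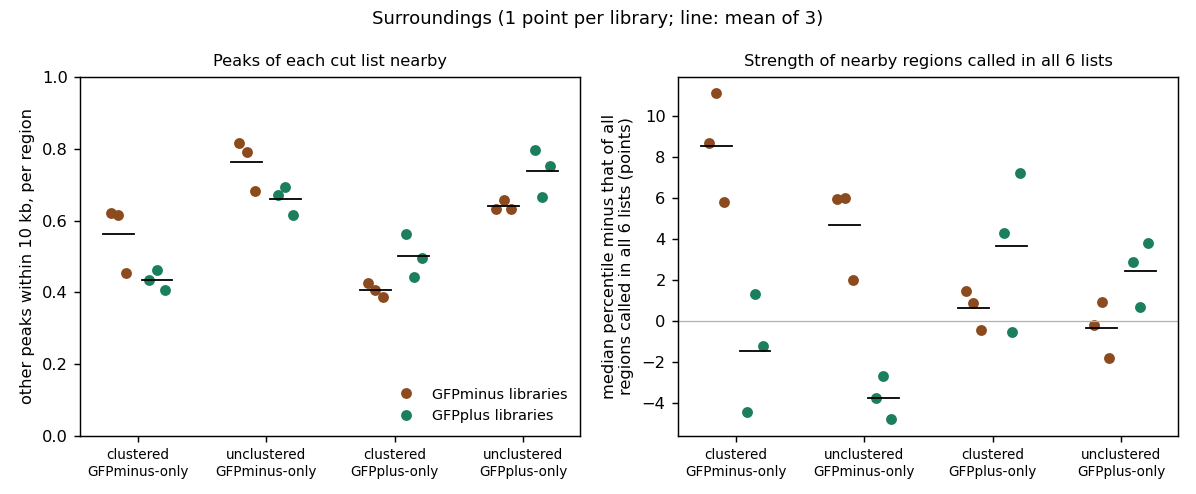
Left, other peaks of each cut list within 10 kb, divided by the number of regions of the kind; right, median percentile of nearby regions called in all 6 lists, minus that of all 13637 such regions, in points. A peak near several regions was counted once, so values per region on the left are not comparable between clustered and unclustered kinds. Each point is 1 library (brown GFPminus, green GFPplus) and each line the mean of 3; around clustered GFPminus-only regions there were 0.56 GFPminus and 0.43 GFPplus peaks per region, and the right panel shows no overlap of the fractions there.

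Clusters were found on 24 of the 25 numbered chromosomes. Chromosome 7 held the most, with 22 regions in 10 clusters, and chromosome 12 held none although it had 59 GFPminus-only regions. Chromosome 7 also had the most GFPminus-only regions, 168, of which 13.1% were clustered, near the 12.1% over all numbered chromosomes. Relative to the merged regions of the chromosome, the clustered regions numbered 6.18 per 1000 on chromosome 7, 6.75 on chromosome 11 and 7.45 on chromosome 22, against 1.16 on chromosome 5. All numbered chromosomes together held 258 clustered among 61837 merged regions. Chromosome 5 had 121 GFPminus-only regions, of which 4 (3.31%) were clustered, and chromosome 22 had 63, of which 14 (22.2%) were. After the window on chromosome 11, the 100 kb windows with most clustered regions were on chromosome 9 at 26800001 to 26900000 (5 regions) and on chromosome 18 at 5100001 to 5200000 (4 regions). Chromosome 3 at 46800001 to 46900000 and chromosome 9 at 2100001 to 2200000 also held 4 each. These numbers are small and were not tested.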

How the data were processed

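ATAC-seq peak lists of 6 libraries (3 GFPplus, 3 GFPminus) were used. Tools named in the submitters' processing notes are MACS2, deepTools, Bowtie2 2.1.0 and cutadapt 1.3, with the genome build Zv9 (danRer7). Their settings were not given in the sources used. Per the file headers the authors deposited 1 list per library, so peaks were not called on pooled reads. The deposited values of a peak are its fold enrichment (a ratio over background), −log10 p, −log10 q, score and summit offset. They are the authors' own, and served to rank, filter and describe peaks of the same list. Mean folds, and the lowest GFPminus −log10 p that ordered named clusters and regions, took values from different lists. Lists hold no reads, so depth is unknown, and a missing peak does not show closed chromatin.

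Cutting, merging and clustering (Python 3.11.15, numpy 2.4.6, pandas 2.3.3) followed the rule given above. Ties in −log10 p were broken by fold, chromosome and start. Where a library had several peaks in a region, the one with the highest −log10 p gave its values. Exact two-sided permutation tests ran over libraries (3 against 3), or over signs of within-library differences. Named items are the 6 clusters with most regions (ties: higher median of the lowest GFPminus −log10 p), the 5 regions with the highest such value, the 5 nearest pairs and the regions at the limits of the rule. Members, lists and comparisons were chosen with earlier results of these data known. Code was tested on simulated lists. Genes, motifs and sequences were not analysed here, since no annotation or genome in Zv9 was used. Coordinates are 1-based.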

Additional observations from a re-analysis of the deposited data

How the results depend on the processing

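Counts of clustered regions moved with the distance, the length of the lists and the libraries. In place of 258 regions in 121 clusters (12.1% of GFPminus-only regions), neighbours at 1 to 5 kb gave 94 in 45 (4.39%) and at 1 to 20 kb 468 in 204 (21.9%), by construction. The share was 13.9% with 25000 peaks, 15.1% with 20000, 15.4% with a −log10 q of at least 5 and 8.87% when ranked by fold. In the same order, the clustered share of GFPplus-only regions was 10.7%, 9.24%, 8.77% and 8.74%. With a −log10 q of at least 5 the lists were also cut to the shortest, 19001 peaks. That setting is therefore close to the one with 20000 peaks. Leaving out 1 library gave 317 to 651 regions, 149 to 293 clusters and shares of 11.8% to 17.2%. In settings chosen after the data had been seen, lists as deposited gave 79 regions in 38 clusters (5.05%), and lists of 50396 peaks without GFPminus library 3 gave 814 in 372 (17.5%). Which regions qualified depended on the lists: the deposited lists shared 19 regions with the 258 (7.36% of these, 24.1% of the 79), lists of 20000 peaks shared 74 (28.7% of the 258, 28.4% of 261), while an overlap of 50% of the shorter peak shared 257. The chromosome 8 cluster of 3 had 0 clustered regions in both of the settings chosen later, and 2 when ranked by fold, with summits widened or at 1 to 5 kb.

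The difference in nearby peaks (22 to 75.5) and in the percentile of nearby regions called in all 6 lists (7.55 to 25.1 points) kept its direction in every setting run. The difference in nearby peaks is a total over the 79 to 814 clustered regions of a setting, so its size is not comparable between settings. The percentile difference had an exact permutation p = 0.2 without GFPplus library 1. The share with deposited GFPplus peaks turned to 0.12 points at 1 to 5 kb and to 1.06 when ranked by fold. The fold difference turned to 0.053 at 1 to 20 kb, 0.27 when ranked by fold and 0.21 in the deposited lists, and ranged from −0.22 to 0.17 without 1 library. It kept its direction at −0.53 with neighbours at 1 to 5 kb, −0.24 with 20000 peaks and −0.21 with a −log10 q of at least 5. The width difference turned to −13.3 bp at 1 to 5 kb and ranged from −0.67 to 19.8 bp without 1 library. The cause was not tested. GFPplus peaks beyond the cut cannot be counted when the lists are not cut.

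The labels do not say whether same-numbered libraries come from the same sort, so numbers were not used to pair libraries. Deviations of same-numbered libraries had correlations of 0.0074, 0.028 and 0.064, all under 0.1. Those of differently numbered libraries ran from −0.052 to 0.033. Such low values cannot decide whether libraries were paired. With the replicate block the 258 regions, 121 clusters and 12.1% are the same by construction, and the differences of 33.3 peaks and 10 points gave an exact sign-flip permutation p = 0.25 each, the smallest that 3 pairs allow. Comparisons within a fraction have no pairs across fractions.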

Other observations

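Unplaced scaffolds of Zv9, which were left out of the clusters, held 2113 merged regions. Of these, 37 on 31 scaffolds were GFPminus-only, and 2 of the 37 lay 1 to 10 kb from another on the same scaffold.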
